A study of Drosophila melanogaster with 3 samples.

Results

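Plzf, the zinc finger protein encoded by CG6792, was mapped by chromatin immunoprecipitation and sequencing (ChIP-seq) in whole Drosophila melanogaster prepupae. The peaks described here have their summit on a transcription start site (TSS) of a protein-coding gene or up to 500 bp downstream of it, inside the transcribed unit. A peak was kept when coding TSSs lay within 500 bp of the summit on one strand only and the summit was on or downstream of the nearest of them. Of the 7096 peaks that the authors selected by the irreproducible discovery rate (IDR), 331 (4.66%) met this rule. They are called downstream peaks below. For 77 of them (23.3%) a further coding TSS on the same strand lay within 500 bp ahead of the summit, so these summits lie between starts. The matching number was not counted for upstream peaks. The same rule with the summit on the other side gave 1346 upstream peaks, 735 peaks had coding TSSs on both strands, and 4684 had none within 500 bp.

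The series has 1 group of 3 biological replicates. All animals came from a transgenic line that stably expresses Plzf with GFP at its C terminus, were of mixed sex, were collected as prepupae and have no recorded age, per the labels. The immunoprecipitation used an anti-GFP antibody according to the description in the labels, whereas their antibody field names CG6792. Sonication gave fragments in a labelled size range of 200 to 800, and a control library entered the region calling, per the file notes. The labels give a single transgenic line and whole animals, so the cells in which a site was bound are not resolved, and no untagged animals are among the samples analysed here.

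RNA polymerase II assembles on the core promoter around the TSS, and at many Drosophila genes it pauses shortly after starting transcription. The DNA downstream of the TSS encodes the 5′ untranslated region (5′ UTR) and often the start of the first intron, which in flies can hold enhancers. The core promoter is marked by short words, among them the TATA box upstream of the TSS and the pause button, a G- and C-rich word found downstream of it.

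The sequences under 4 of the strongest downstream peaks in introns are shown first, because these peaks lie well inside the gene and in DNA rich in A and T. Each window is 101 bases centred on the summit, from the RefSeq genome of dm6, written 5′ to 3′ in the direction of transcription. Capitals mark the searched words that occur in it.
hng3, 3L:738878-738978, reverse strand: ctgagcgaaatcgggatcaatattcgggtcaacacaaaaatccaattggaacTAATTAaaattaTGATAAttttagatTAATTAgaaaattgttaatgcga
Ptp4E, X:4939941-4940041, forward strand: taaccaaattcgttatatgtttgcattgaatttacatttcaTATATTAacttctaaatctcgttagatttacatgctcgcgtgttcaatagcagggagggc
CG31612, 2L:21794925-21795025, reverse strand: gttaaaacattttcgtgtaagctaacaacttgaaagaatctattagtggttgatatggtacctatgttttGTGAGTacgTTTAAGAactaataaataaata
CG43116, 3R:25996558-25996658, reverse strand: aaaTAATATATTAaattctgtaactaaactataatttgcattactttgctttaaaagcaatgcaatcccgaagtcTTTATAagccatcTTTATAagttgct
The words marked are the homeodomain core TAATTA and the GATA word TGATAA in hng3, TAATATA on the other strand in Ptp4E and on both strands in CG43116, TCTTAAA on the other strand and the 5′ splice site word GTGAGT in CG31612, and TATAAA read on the other strand in CG43116. In windows on all coding TSSs, the homeodomain core was found in 2.97%, the GATA word (AGATAA or TGATAA) in 9.84% and the splice word (GTAAGT or GTGAGT) in 6.83%, with both strands searched. In the same order the shares were 9.78%, 16.5% and 7.22% of all IDR peaks, and 6.95%, 15.1% and 9.67% of downstream peaks. The 4 windows share no single searched word. Their G+C content was 28.7% for hng3, 33.7% for Ptp4E, 27.7% for CG31612 and 25.7% for CG43116.

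Sequences of 30 bases, centred on the summit, are shown for 5 of the strongest peaks in 5′ UTRs. Another 5 are centred on a word counted here as pause button, CGGACG or CGCACG (capitals). Their peaks were chosen for carrying it on the strand of the gene.
PNPase, 3R:31404644-31404673, reverse strand: gaaacgtacagggcttttattgtaagattt
Atat, 3L:9420152-9420181, reverse strand: atccagattgttagtaaaatctttaaattg
CG9399, 3R:9574152-9574181, reverse strand: gctgttgcggtgctaaaattattTTTATAa
ph-p, X:2137956-2137985, reverse strand: tgaaacattaataaacttaaaacttaataa
CG12316, 3L:15136783-15136812, reverse strand: acacctgcgaataaagcacatatttcagct
eas, X:16278887-16278916, forward strand: ttaaggccccttCGCACGacctaaattccg
CG33695, 2L:11278044-11278073, forward strand: gttgaatagctgCGGACGcaaaactacgta
CG1812, X:20511596-20511625, forward strand: aagcaaagaaatCGCACGcgaaactttttt
jvl, 3R:14749585-14749614, forward strand: tcttcagcctagCGCACGtgtctcaatatt
CG13086, 2L:19364732-19364761, forward strand: tgtataaataaaCGGACGatgacgctcttt
The first 5 come from among the highest peaks in 5′ UTRs, and CG9399 carries TATAAA on the other strand. In the last 5 the pause button stands on the strand of the gene because they were chosen so, and their shared strand is no observation.

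The height of a peak is the signal that the authors' caller gave it, on the scale of its own list, and it serves here to rank and describe peaks within a list. The highest downstream peak was at PNPase, which encodes polynucleotide phosphorylase, an RNA-degrading enzyme. Its summit lay 81 bp downstream of the nearest TSS and 91 bp before a further coding TSS on the same strand. Its pooled height was 2158, and its heights in replicates 1, 2 and 3 were 640, 940 and 580. The next was at GstE13, a glutathione S-transferase gene, with a pooled height of 1353 and replicate heights of 412, 525 and 424. At Atat, which encodes an α-tubulin acetyltransferase, the summit was 10 bp from the TSS, with a pooled height of 871 and replicate heights of 244, 400 and 226. CG9399 had a pooled height of 771 and replicate heights of 260, 253 and 242. Because each list has its own scale, replicates are compared by rank, where 1 is the highest region of a list. In replicates 1, 2 and 3 PNPase ranked 7, 5 and 16, GstE13 43, 56 and 39, Atat 163, 121 and 177, and CG9399 143, 389 and 148. CG9399 thus stood lower in the order of replicate 2 than in those of the other replicates.

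Peaks of similar height lay further inside their genes. At pnut, a septin gene, the pooled height was 730 at 130 bp, with replicate heights of 217, 335 and 180. At ph-p, a Polycomb group gene, the summit lay 400 bp downstream in the 5′ UTR, with a pooled height of 712 and replicate heights of 259, 359 and 179. Among the 12 highest peaks held by all 3 replicates, those at hng3 (height 678, 421 bp), Ptp4E (665, 410 bp), CG31612 (663, 472 bp) and CG43116 (630, 388 bp) were in introns. Ptp4E encodes a receptor-type tyrosine phosphatase. Those at CG12316 (625, 136 bp) and CAH3 (594, 147 bp), a carbonic anhydrase gene, were in 5′ UTRs. These 12 were chosen for height and for being held, so their presence in every replicate is no measure of agreement.

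**Figure D1:**
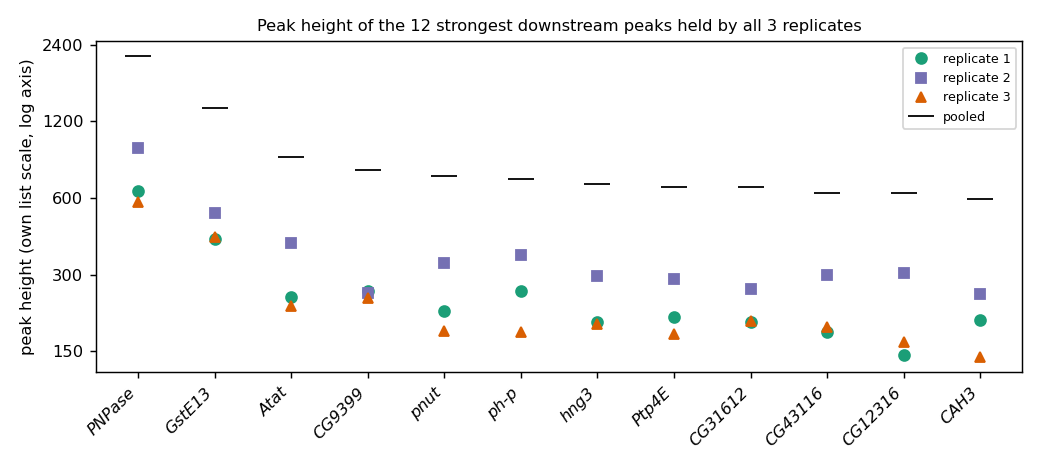
Heights of the 12 strongest downstream peaks held by all 3 replicates, on a log axis, in the pooled list and in replicates 1, 2 and 3. PNPase stood highest at 2158 in the pooled list, and the heights of the lists are on separate scales, so only the order within a list can be read.

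Downstream peaks were lower than upstream peaks. Their heights ran from 79.6 to 2158 with a median of 125 (quartiles 95.2 and 203), against a median of 152 for upstream peaks and 145 for all IDR peaks. In each replicate's own list the median height was 38.8, 62.0 and 36.7 for downstream peaks (replicates 1, 2 and 3) and 47.4, 70.2 and 44.4 for upstream peaks, so the order was the same in 3 of 3 replicates. The strongest quartile of all IDR peaks, 25% of them by definition, held 71 downstream peaks (21.5%) and 416 upstream peaks (30.9%) (odds ratio 0.610, 95% interval 0.458 to 0.813, adjusted p = 0.000990 by a two-sided Fisher's exact test). The weakest quartile held 114 downstream peaks (34.4%) and 295 upstream peaks (21.9%) (odds ratio 1.87, interval 1.44 to 2.43, adjusted p = 1.33e-05 by the same exact test). A total of 7 such tests were made and adjusted together by the Benjamini-Hochberg method, including the share selected by IDR, and those of the weakest quartile and of peaks held by no replicate were added after the values had been seen. All p-values are across regions, which are not independent replicates, and describe this set of animals only. When only peaks held by both other replicates were counted, leaving out each replicate in turn, the odds ratio for the strongest quartile was 0.731 to 0.796 and p reached 0.0558 to 0.172.

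Fewer candidate regions downstream of a TSS were selected by IDR. Of all pooled regions, 23.7% were selected. The share was 16.4% (331 of 2021) for downstream regions and 34.4% (1346 of 3913) for upstream regions (odds ratio 0.374). IDR selection and the side of the TSS also define the downstream peaks, so this ratio is given as a description with no p-value. Among the 7096 strongest regions of each replicate's own list, 286, 460 and 303 were downstream in replicates 1, 2 and 3, a share of 4.93% ± 1.35 (SD, n = 3), and 1362, 1382 and 1388 were upstream, a share of 19.4% ± 0.192. Replicate 2 stood apart with the most downstream regions, while the upstream numbers were close.

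A replicate was said to hold a peak when 1 of its 7096 strongest regions had a summit within 100 bp. All 3 replicates held 165 downstream peaks (49.8%) and 856 upstream peaks (63.6%), against 62.4% of all IDR peaks. The odds ratio of 0.569 had an interval of 0.447 to 0.725 and an adjusted p = 1.33e-05 by Fisher's exact test. Among IDR peaks of above-median height it was 0.802, with an exact p = 0.479. By quartile from strongest to weakest, the held shares were 97.2%, 84.6%, 43.2% and 5.26% for downstream peaks and 98.1%, 85.3%, 52.2% and 6.78% for upstream peaks. Within the same quartile the shares were therefore closer than over all peaks. No replicate held 11 downstream peaks and 18 upstream peaks (odds ratio 2.54, interval 1.19 to 5.42, adjusted p = 0.0218 by Fisher's exact test), against 112 of all 7096 IDR peaks. All 11 downstream and 15 of the 18 upstream ones were in the weakest quartile. Only replicate 2 held 46 downstream peaks (13.9%) and 78 upstream peaks (5.79%), whereas 11 downstream peaks were held only by replicate 1 and 12 only by replicate 3. Because the replicates also made up the pooled list, these shares do not measure independent agreement.

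The summits were most frequent at the TSS, fewest from 200 to 299 bp and more frequent again up to the limit of 500 bp, with no decline before it. The median distance was 168 bp (quartiles 61 and 365) for downstream peaks and 204 bp for upstream peaks. In steps of 50 bp from the TSS the downstream peaks numbered 68, 51, 34, 32, 14, 17, 25, 29, 30 and 31. Of the pooled regions in the same steps, IDR selected 15%, 15%, 15%, 15.7%, 9.86%, 11.7%, 19.2%, 21.8%, 25% and 24.4%, so the low from 200 to 299 bp was in the selected share as well as in the number of peaks. Summits up to 100 bp from the TSS numbered 122, those from 101 to 300 bp numbered 94, and those over 300 bp numbered 115. A further coding TSS on the same strand lay within 500 bp ahead for 51 of the 122 nearest (41.8%). The count was 3 of 115 (2.61%) for those over 300 bp. Distance was taken from the nearest TSS, so a TSS ahead could not be nearer than the one behind. Far summits thus had less room for a TSS ahead within 500 bp, and this contrast was partly set in advance.

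**Figure D2:**
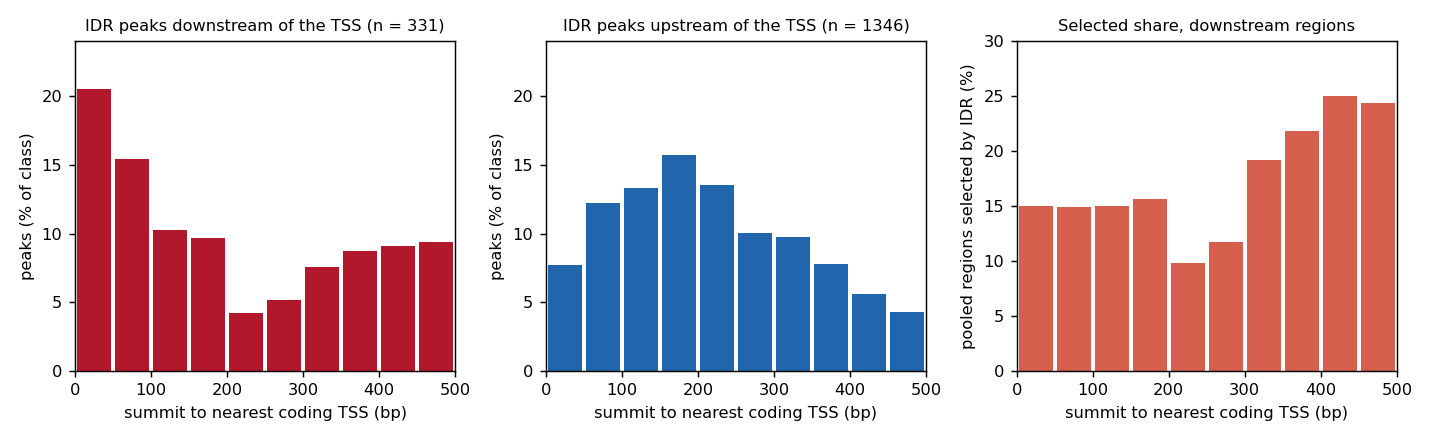
Distance of the summit from the nearest coding TSS, in steps of 50 bp, as a percentage of the 331 downstream peaks (left) and the 1346 upstream peaks (middle), and the percentage of pooled downstream regions selected by IDR (right). Downstream peaks are most frequent in the first step (20.5%) and fewest at 200 to 249 bp (4.23%), and the selected share there is 9.86%.

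The far summits were the higher and the more often held. Median height was 111 for summits up to 100 bp, 115 for those from 101 to 300 bp and 151 for those over 300 bp. All 3 replicates held 51 of the 122 nearest (41.8%), 42 of the 94 in the middle (44.7%) and 72 of the 115 farthest (62.6%). Ranks in the replicate's own list were taken from regions matched within 100 bp. The median rank was 3583, 2932 and 3481 in replicates 1, 2 and 3 for summits over 300 bp, and 4692, 3804 and 4956 for those up to 100 bp. The far group ranked ahead of the near group in 3 of 3 replicates, a description with no test.

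Among summits up to 100 bp from the TSS, the side was less certain for the nearest. A region was matched in all 3 replicates for 265 downstream peaks, and in 231 of these (87.2%) every replicate's own summit was also downstream. The count was 8 of 32 for summits within 25 bp of the TSS, 14 of 22 from 26 to 50 bp and 36 of 38 from 51 to 100 bp. Beyond 100 bp it was 52 of 52, 24 of 24, 44 of 44 and 53 of 53 in the successive ranges to 200, 300, 400 and 500 bp. A match had to lie within 100 bp of the summit, so beyond 100 bp no match could reach the other side. Those full counts were set in advance, and they raise the 87.2%. With 8 of 32, summits within 25 bp are best read as lying at the TSS. Those on the TSS itself included cv-2, with a BMP-binding product, at a height of 86.4, Srpk79D, an SR protein kinase gene, at 87.7, and CG42788 at 103.

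At the borders of the rule, heights inside and outside overlapped. CG10383 at 500 bp had a height of 162, mats, a Hippo pathway gene, at 499 bp had 276, and Syp, an RNA-binding protein gene, at 499 bp had 104. Just outside, pAbp, the poly(A)-binding protein gene, at 501 bp had 448, ago at 501 bp had 146 and CG45544 at 505 bp had 142. On the upstream border, Glut4EF at -1 bp had 88.1, RpL39 at -2 bp had 136 and CG30114 at -2 bp had 118.

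Most summits lay in 5′ UTRs or first introns. Of the 331, 200 (60.4%, 95% Wilson interval 55.1 to 65.5) were in a 5′ UTR, 127 (38.4%, 33.3 to 43.7) in an intron, 3 (0.906%) in a coding exon and 1 in another exon. The other pooled downstream regions, which IDR did not select, had 66.8% in 5′ UTRs, 23.8% in introns and 9.11% in coding exons. Positions from 0 to 500 bp after all coding TSSs had 36.8%, 23.6% and 38% in these classes. Intervals cover the counting of regions only, and the sequencing depth behind them is unknown. The summit lay before the start codon of every transcript of its TSS in 277 of 331 downstream peaks (83.7%).

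Beyond 300 bp introns held most summits. There 90 of 115 downstream peaks (78.3%, 69.9 to 84.8) were intronic, beside 54.7% for unselected pooled regions and 33.3% for all coding TSS positions at that distance. No far summit was in a coding exon (0 of 115, with an upper Wilson bound of 3.23%), beside 12% for unselected pooled regions and 47.6% for those positions. Of the 127 intronic summits, 125 were in the first intron. All 127 together lay at a median of 139 bp past the 5′ splice site of their intron. The median height of intronic summits was 144, against 111 for summits in 5′ UTRs. The 3 in coding exons were at DIP1 (148), Got2, an aspartate aminotransferase gene (148), and CG8654 (80.8).

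**Figure D3:**
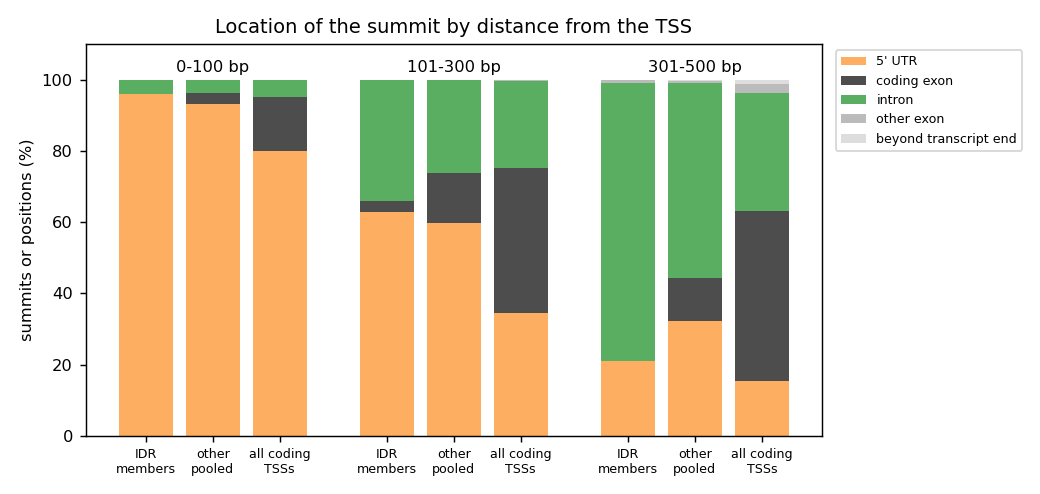
Location of the summit, as a percentage, in 3 ranges of distance from the TSS, for downstream IDR peaks (IDR members), the other pooled downstream regions and positions after all coding TSSs. In the farthest range the intron share (green) is 78.3% for downstream peaks, 54.7% for the other pooled regions and 33.3% for the positions.

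The peaks fell on 313 genes, or 2.24% of the 13945 protein-coding genes, and upstream peaks on 1153. Both kinds were found at 74 genes, and 17 genes had more than 1 downstream peak. CG18622 had 3, of heights 405, 127 and 87.6. Septin2 had a peak of 538 at 472 bp and one of 115 at 266 bp. The second had replicate heights of 13.6, 9.18 and 91.4, and it was held only by replicate 3. At egh, which encodes a glycolipid-modifying enzyme, the heights were 502 and 250, and at Trpm, a cation channel gene, they were 482 and 110. A noncoding TSS lay within 100 bp of the summit for 5 downstream peaks, among them those at SCOT, a gene of ketone body use (569), and grh, a transcription factor gene (96.2). The lowest heights were 79.6 at MYPT-75D, 79.7 at Pdk, the pyruvate dehydrogenase kinase gene, and 79.8 at CG5953. Another IDR summit within 500 bp of the same TSS was found for 48 downstream peaks (14.5%) and 201 upstream peaks (14.9%). Of 115 summits over 300 bp, 19 had an upstream companion, against 6 of 122 up to 100 bp. IDR regions had a median width of 440 bp, and the part of their spacing in this contrast was not tested.

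By chromosome arm, 55 downstream peaks were on 2L, 72 on 2R, 58 on 3L, 74 on 3R, 1 on 4 and 71 on X. The X share was 21.5% for downstream and 18.9% for upstream peaks, against 19% of all IDR peaks, and the odds ratio of 1.17 had an interval of 0.873 to 1.58 (unadjusted p = 0.313 by Fisher's exact test). The nearest TSS was internal to its gene, not the outermost one, for 154 downstream peaks (46.5%) and 512 upstream peaks (38%). The 13945 coding genes, each with a single outermost TSS, had 19607 distinct coding TSSs, so most TSSs were outermost ones. For internal TSSs the odds ratio was 1.42, with an interval of 1.11 to 1.81 and an adjusted p = 0.00805 by Fisher's exact test. With a window of 1000 bp it was 1.17, with an exact p = 0.123.

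Cytosolic ribosomal protein genes carried downstream peaks at 8 of 93 (8.60%), beside 2.24% of all coding genes, and upstream peaks at 21 (22.6%), beside 8.27% of all coding genes. Both shares were thus above those of all genes, and neither was tested. The 8 summits lay 1 to 37 bp from the TSS. RpS4 had a height of 217 and replicate heights of 73.9, 113 and 55.5, RpL27 had 175 with 53.6, 78.9 and 33.2, and RpS15Aa, the lowest, had 103 with 33.0, 55.2 and 23.1. RpL9, RpL27A, RpL37A, RpS23 and RpS29 lay between. The replicates placed summits this close to the TSS on either side, as given above. Of 51 translation factor genes 2 had a downstream peak, eEF2, the elongation factor, at 136 and eIF4A, a helicase of initiation, at 80.7.

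Among regulators of chromatin and of the ecdysone response, the steroid signal of metamorphosis, a few genes had downstream peaks. Of 20 ecdysone response genes, the nuclear receptor genes Eip75B and Hr78 had downstream peaks. Eip75B had a height of 574 and replicate heights of 139, 290 and 144, and Hr78 had 251 with 67.8, 111 and 76.7. Of 21 insulator and promoter factor genes 3 had one, namely Trl, which encodes GAGA factor, at 396, psq at 187 and Clamp at 96.4. In the Polycomb group the count was 1 of 21 (ph-p) and in the Trithorax group and remodelers 1 of 27, Utx, a histone demethylase gene, with peaks of 106 and 96.9. Shares of genes with a downstream peak were 10% for the ecdysone response, 14.3% for insulator and promoter factors, 4.76% for the Polycomb group and 3.70% for the Trithorax group. The share over all coding genes was 2.24%, and each of these lists rests on few genes. Upstream peaks were at 7 genes (35%), 3 (14.3%), 3 (14.3%) and 1 (3.70%) in the same order, beside 8.27% of all coding genes.

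In the remaining lists at most 1 gene had a downstream peak. Hsp83, the Hsp90 chaperone gene, was the only 1 of 34 heat shock and chaperone genes, with a height of 437 and replicate heights of 84.0, 273 and 87.7. It ranked 1459, 323 and 1211 in replicates 1, 2 and 3, nearest the top in replicate 2. Arl8 was the only 1 of 50 small GTPase genes (91.8), and MED6 the only 1 of 54 Mediator and general transcription factor genes (171). None was found at 73 mitochondrial ribosomal protein, 87 oxidative phosphorylation, 48 proteasome, 20 autophagy, 21 nuclear pore, 115 cuticle or 46 disc patterning genes. The shares of 2.94% for chaperones, 2.00% for small GTPases and 1.85% for Mediator lay near the 2.24% of all coding genes, at which small lists can hold no peak. No list was tested.

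Base composition was measured in 101 bases around the summit. G+C content was 38.7% ± 0.524 (SE over 331 regions) in downstream peaks and 34.8% ± 0.282 in upstream peaks. The other pooled regions, which IDR did not select, had 44.4% downstream and 41.5% upstream. In the replicates' own strongest regions it was 38.4%, 41.1% and 38.3% downstream and 34.5%, 35.9% and 34.7% upstream. The difference was 4.24 percentage points ± 0.864 (SD, n = 3) and had the same sign in 3 of 3 replicates. The exact sign-flip test gave p = 0.25, the smallest that 3 replicates allow. With a window of 1000 bp around the TSS the difference was 2.33 points. Higher peaks were poorer in G and C, with means of 34.3%, 37.4%, 39.3% and 41.7% from the strongest to the weakest quartile. Summits in 5′ UTRs had 41.2% and those in introns 34.6%.

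Far summits lay in a local minimum of G+C content. Beyond 300 bp the mean was 35.6% at the summit, 44.6% at 300 bp on the side of the TSS, 44.0% at 300 bp on the other side and 47.3% at the TSS. The summit was below both flanks in 73 of 115 far peaks (63.5%), and in 142 of all 331 downstream peaks (42.9%) against 810 upstream peaks (60.2%).

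**Figure D4:**
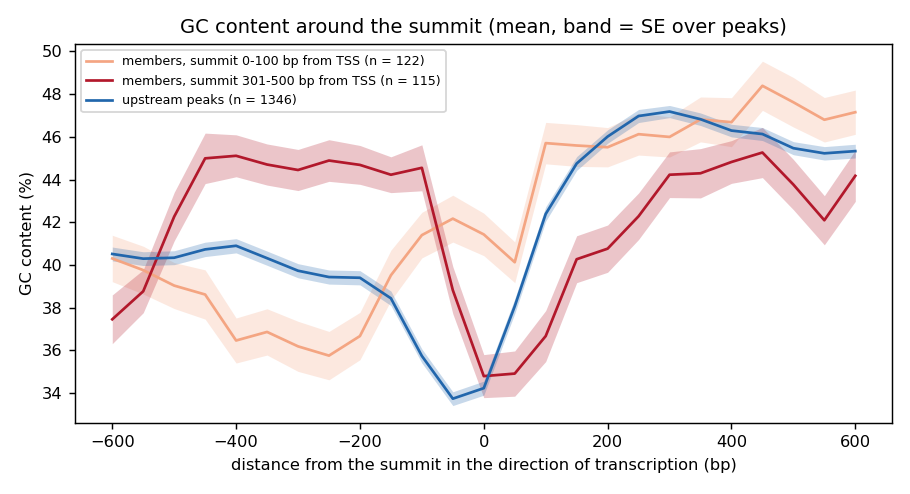
Mean G+C content in 51-base windows against distance from the summit in the direction of transcription, with bands of 1 SE over peaks, for near downstream peaks (n = 122), far downstream peaks (n = 115) and upstream peaks. In these windows the far group has 34.8% at the summit and 44.5% and 44.2% at 300 bp before and after it.

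Both strands were searched for 28 sequence words up to 50 bp from each summit. The classes are defined by the side of the TSS, and core promoter words have typical positions relative to it. A difference in such words between the classes therefore cannot be told apart from the position rule. The positions of matches relative to the TSS were likewise limited by those of the summits. At an adjusted p under 0.05, 1 word (3.57%) was more frequent and 1 (3.57%) less frequent in downstream than in upstream peaks. The name pause button stands here for 2 searched words, CGGACG and CGCACG, counted together. Other forms of the element were not searched. Either word was found in 26 downstream peaks (7.85%) and 35 upstream peaks (2.60%) (odds ratio 3.19, interval 1.89 to 5.38, adjusted p = 0.000723 by Fisher's exact test). The other pooled downstream regions had 9.23%, windows on all coding TSSs 8.55% and all IDR peaks 1.90%. In the replicates' own regions the shares were 6.64%, 8.70% and 6.93% downstream and 3.08%, 3.55% and 2.74% upstream. The share in downstream peaks was thus not above that of unselected regions in the same place, and their G+C content also differed from that of upstream peaks; the part of base composition in this difference was not tested.

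The pause button stood on the strand of the gene in 23 of 28 matches in downstream peaks (82.1%), against 17 of 38 in upstream peaks (44.7%), 72 of 168 in the other pooled downstream regions (42.9%) and 966 of 1813 on all coding TSSs (53.3%). This orientation was noticed in the data and was not tested. The median match began 119 bp from the TSS, and 2 matches on that strand lay 15 to 40 bp downstream of it.

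The TATA box, TATAAA, was found in 39 downstream peaks (11.8%) and 287 upstream peaks (21.3%) (odds ratio 0.493, interval 0.344 to 0.705, adjusted p = 0.000723 by Fisher's exact test). The other pooled downstream regions had 9.59%, windows on all coding TSSs 15.3% and all IDR peaks 22.1%. In the replicates the shares were 12.9%, 9.57% and 14.2% downstream and 21.6%, 20.1% and 20.7% upstream. In downstream peaks 18 of 46 TATAAA matches (39.1%) were on the strand of the gene, against 190 of 376 in upstream peaks (50.5%) and 69.5% of matches on all coding TSSs. Of the 46, 5 lay upstream of the TSS, and the median match was at 154.5 bp downstream, so most were not in the place of a TATA box. The rule put every summit on or downstream of the TSS, so few windows reached that place. These positions were thus largely set in advance. TCTTAAA was in 2.42% of downstream and 6.09% of upstream peaks (adjusted exact p = 0.0573), and TAATATA was in 4.23% of downstream and 7.80% of upstream peaks (adjusted exact p = 0.160). Neither passed the threshold of 0.05, and both words had been picked from summits of these same data. Windows on all coding TSSs had TCTTAAA in 1.56% and TAATATA in 2.10%. The BEAF-32 word CGATA is contained in the DRE word TATCGATA, so these counts overlap. A match is a description of the letters and not of binding.

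**Figure D5:**
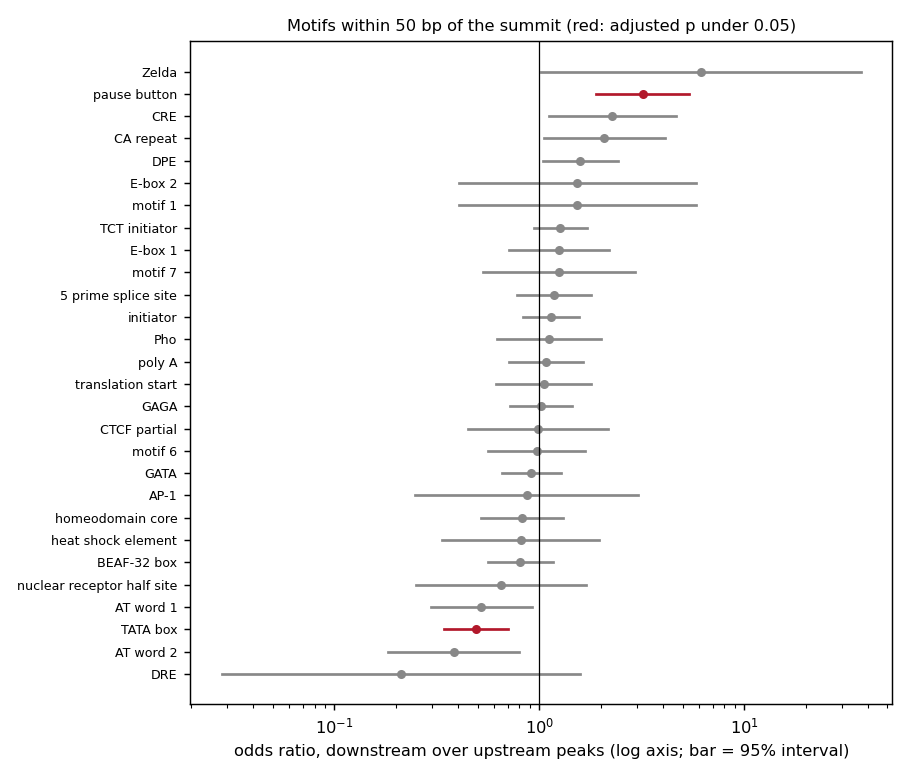
Odds ratio of each of the 28 words in downstream over upstream peaks, on a log axis, with 95% Woolf intervals, in red where the adjusted p was under 0.05. AT word 1 is TAATATA, AT word 2 is TCTTAAA, and E-box 1 and 2 are CAGCTG and CACGTG. The words in red are the pause button at 3.19 and the TATA box at 0.493.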

How the data were processed

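The authors deposited narrowPeak lists of regions on dm6, 1 for each of the 3 replicates and 1 for the replicates pooled, and the optimal IDR list, per the file headers and notes. The deposited signal is the caller's height on the scale of its own list. For the aligner, the caller, their versions and the threshold of the IDR step, the sources used here give no name or value, and the depth is unknown. Lists on dm3 were not used. Coding TSSs were those of all transcripts in Ensembl release 115, and sequence came from the RefSeq genome of dm6. The summit is the region start plus the deposited offset, and for 240 of 331 members it is the midpoint of the common 440 bp region.

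Members, gene lists and words were chosen with earlier results of these data known. Downstream and upstream peaks were compared by two-sided Fisher's exact tests (scipy 1.17.1) with Woolf intervals, adjusted over 7 comparisons or 28 words by the Benjamini-Hochberg method at 0.05. Of the 7 comparisons, 5 were planned and 2 added after the values were seen. The code was tested on simulated data. Named genes were the 12 highest held peaks, the 2 highest members of each list, the lowest peaks, those at the borders of the rule, in coding exons, at genes with several peaks and at noncoding TSSs. Other list members were named after their values were seen. Alternatives were other windows, TSS sets, height thresholds, summit positions, search widths and sets without a replicate.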

Additional observations from a re-analysis of the deposited data

How the results depend on the processing

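Of 112 alternative values, 85 stayed in the same direction and on the same side of the test's limit, 11 kept the direction but no longer passed, 16 moved by more than the limit, and none reversed. Coding TSSs from RefSeq gave every IDR peak the same class, so those values repeat the main ones and are no separate check. The odds ratio for IDR selection ran from 0.314 to 0.508 and that for the X chromosome from 1.10 to 1.34. The G+C difference ran from 2.33 points with a 1000 bp window to 5.41 with the outermost TSS of each gene. Without a replicate, the strongest quartile gave odds ratios of 0.731 to 0.796, which did not pass. Among peaks of above-median height, the odds ratio for peaks held by all replicates was 0.802. With a 1000 bp window, that for internal TSSs was 1.17. The words past the threshold, 2 in all, became 0 with a 1000 bp window, 4 with the outermost TSS of each gene, 0 above the median height, 5 when searched within 100 bp, and 1 to 2 without a replicate. The TATA box no longer passed with a 1000 bp window (0.811), above the median height (0.563) or without replicate 2 (0.536), nor did the pause button with a 1000 bp window (2.16), above the median height (2.92) or without replicate 3 (2.89). The downstream share per replicate was 8.39% with a 1000 bp window. The share with a companion peak was 6.75% at 250 bp, 32.5% at 1000 bp and 8.98% with the outermost TSS. The intron share, an alternative chosen after seeing the data, was 12.7% at 250 bp, 64.7% at 1000 bp, 46.3% above the median height, 48.7% without summits within 50 bp of the TSS and 42.3% to 45.3% without a replicate. A wider or narrower window changes which summits can be members; the cause of the other changes was not tested. No paired analysis was possible because all samples form a single group and no sample groups share replicate numbers; the G+C difference between downstream and upstream regions was tested within replicates.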
